A study of Mus musculus with 2 samples.

Results

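The miR-26 family of the mouse has 3 genes, Mir26a-1, Mir26a-2 and Mir26b, and each lies inside a gene for a C-terminal domain small phosphatase (Ctdsp). They were taken by their GENCODE M21 symbols, and all 3 were found among the 2202 microRNA genes of the count tables. Counts came from 2 small RNA libraries (size range under 30 bases, per the labels) of gastrocnemius, a calf muscle, taken from female B6CASTF1/J mice at the age of 36 days. B6CASTF1/J animals are the offspring of a cross of C57BL/6 with CAST/EiJ. No treatment is named and there is no other group, so nothing was compared between conditions. Replicate numbers 1 and 2 are biological according to the labels, and the animals are presented there as separate females. Yet 1 donor identifier is given for both libraries. The spread between the libraries may therefore be technical or may lie between animals, which was not tested.

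MicroRNAs are cut as short duplexes from hairpin transcripts, and the arm loaded into Argonaute represses messenger RNAs that pair with its seed, bases 2 to 8 of the mature form. The 5p arms of the family share a seed and so are thought to share most targets. In muscle, miR-26a is known for repressing Ezh2, a histone methyltransferase that holds muscle genes silent, and Smad proteins of TGF-beta and BMP signalling. The host phosphatases act on the C-terminal domain of RNA polymerase II and work with REST to silence neuronal genes outside the nervous system.

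The sequences below (RefSeq, build GRCm38.p6, plus strand) decide which reads can be placed at which gene. The mature forms are written 5′ to 3′ with the seed in capitals.
miR-26a-5p, from both Mir26a-1 and Mir26a-2: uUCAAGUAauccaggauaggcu
miR-26b-5p, from Mir26b: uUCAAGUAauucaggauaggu
miR-26a-1-3p, from Mir26a-1: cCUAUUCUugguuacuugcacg
miR-26a-2-3p, from Mir26a-2: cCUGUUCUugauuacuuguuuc
miR-26b-3p, from Mir26b: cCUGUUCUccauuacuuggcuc
Counted from the 5′ end, with the miR-26a base first, the 5p arms differed by C11U and C21U over 21 compared bases, outside the seed. Among 1679 named mature forms of the RefSeq table, only miR-26a-5p and miR-26b-5p carried the seed UCAAGUA. The 3p arms fell into separate seed groups. miR-26a-2-3p and miR-26b-3p shared the seed CUGUUCU with each other, with miR-6932-3p and with miR-7039-3p, whereas miR-26a-1-3p differed from both by A4G and was the only form with its seed.

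The hairpins are shown with both mature arms in capitals, because the sequence around the 5p arm sets how far a read must reach to be told apart.
Mir26a-1: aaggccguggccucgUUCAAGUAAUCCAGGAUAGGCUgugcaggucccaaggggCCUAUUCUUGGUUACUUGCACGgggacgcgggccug
Mir26a-2: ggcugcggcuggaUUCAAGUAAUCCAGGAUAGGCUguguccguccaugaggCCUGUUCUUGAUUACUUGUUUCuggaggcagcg
Mir26b: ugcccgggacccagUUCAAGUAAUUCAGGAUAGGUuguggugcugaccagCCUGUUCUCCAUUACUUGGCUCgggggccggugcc
The longest stretch common to Mir26a-1 and Mir26a-2 was 25 bases. It began at the first base of miR-26a-5p and ran 3 bases past its end. A read that starts with that base and is at most 25 bases long therefore matches both loci. Mir26b shared at most 11 bases in a row with Mir26a-1 and 10 with Mir26a-2. In windows of 18 bases searched against 1003 mouse hairpins, 0 of 5 windows within the 5p arm of either miR-26a gene were unique, and all 5 within each 3p arm were. For Mir26b, all 68 windows of the hairpin were unique, against 65 of 73 for Mir26a-1 and 59 of 67 for Mir26a-2. The hairpins were of similar length and stability, with 90, 84 and 85 bases and predicted folding energies of -49.4, -44.5 and -43.5 kcal per mol for Mir26a-1, Mir26a-2 and Mir26b.

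All 3 genes lie on the plus strand, like their hosts (mm10, GENCODE M21). Mir26b (ENSMUSG00000065468.1) is at chromosome 1, 74394310 to 74394394, in intron 4 of 6 of Ctdsp1. That intron is 564 bases long, and the hairpin begins 234 bases after the upstream exon and ends 245 bases before the next. Of 2 coding transcripts of Ctdsp1, 1 has the hairpin in an intron and 1 does not span it. Mir26a-2 (ENSMUSG00000065430.1) is at chromosome 10, 126995530 to 126995613, in intron 5 of 7 of Ctdsp2. It lies 1621 bases after one exon and 241 before the next, in an intron of 1946 bases. Of 2 coding transcripts of Ctdsp2, 1 has an exon that overlaps this hairpin by 1 base. Mir26a-1 (ENSMUSG00000065513.1) is at chromosome 9, 119031796 to 119031885, in intron 5 of 7 of Ctdspl, an intron of 3283 bases in a host of 117546 bases. It lies 1543 bases after one exon and 1650 before the next. RNA of the hosts was not analysed here.

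**Figure D1:**
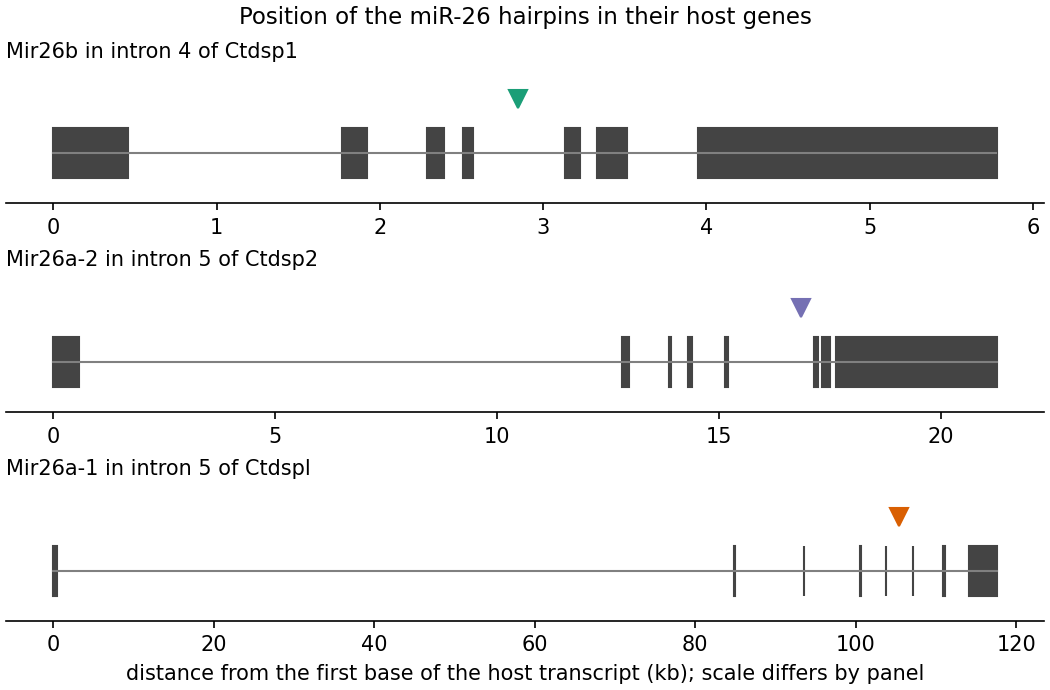
Exons (boxes) of the principal coding transcript of each host along the distance from its first base, in kb, with the hairpin marked by a triangle; the scale differs by panel. Mir26b lies in intron 4 of Ctdsp1, and Mir26a-2 and Mir26a-1 each lie in intron 5 of their host.

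Gene-assigned reads numbered 1593787 in replicate 1 and 2078101 in replicate 2. Reads with several matches, which no gene count includes, were 4.51 and 5.25 times as many. The 5 listed skeletal muscle markers summed to 2.20% and 6.86% of assigned reads. Most of this was Mir206 (32871 and 139295 reads), followed far below by Mir486 (1549 and 2431) and Mir1a-2 (587 and 835). The listed markers of endothelial cells summed to 8.86% and 11.3% of assigned reads, of smooth muscle to 12.03% and 6.25%, and of erythroid cells to 3.73% and 0.898%. Leukocyte markers summed to 0.142% and 0.209%, fibroblast markers to 0.0652% and 0.0698%, and glial markers to 0.152% and 0.0539%. Of all these markers only Mir199a-1 had 0 reads in both libraries. Its mature arms all occur at other hairpins too, as do some or all arms of several other fibroblast and glial markers. Among the skeletal muscle markers, Mir1a-2 and Mir133a-1 are listed as sharing a mature form with another locus. Reads that match several places are missing from these sums, which therefore do not measure how scarce such microRNAs were and do not rank the cell types. The part of these cells in the miR-26 counts was not tested. In a piece of whole muscle, fewer cells of a type and less RNA per cell cannot be told apart.

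Nearly all reads counted at the family were at Mir26b. Its gene had 27600 reads in replicate 1 and 40070 in replicate 2, which is 17317 and 19282 reads per 1000000 gene-assigned reads (CPM). The mean was 18300 CPM ± 1389 (SD, n = 2), or 1.83% ± 0.139 of assigned reads. Mir26b ranked 15th in replicate 1 and 14th in replicate 2 among all genes by reads. The exact 95% binomial intervals, which cover counting error only, were 1.71% to 1.75% and 1.91% to 1.95%.

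Mir26a-2, the Ctdsp2 copy, had 50 and 59 reads. These are 31.4 CPM (interval 23.3 to 41.4) and 28.4 CPM (21.6 to 36.6), with a mean of 29.9 CPM ± 2.11 (SD, n = 2). It ranked 208th and 209th. Mir26a-1, the Ctdspl copy, had 4 and 16 reads, or 2.51 CPM (0.684 to 6.43) and 7.70 CPM (4.40 to 12.5). Its mean was 5.10 CPM ± 3.67 (n = 2), and its 4 reads in replicate 1 were hardly more than the limit of 3 that an unseen gene could have. Mir26b and Mir26a-2 had at least 10 reads in both libraries, the minimum for testing, and Mir26a-1 did not. On the strand opposite the gene all 3 had 0 reads in both libraries, and counts taken without regard to strand were the same.

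**Figure D2:**
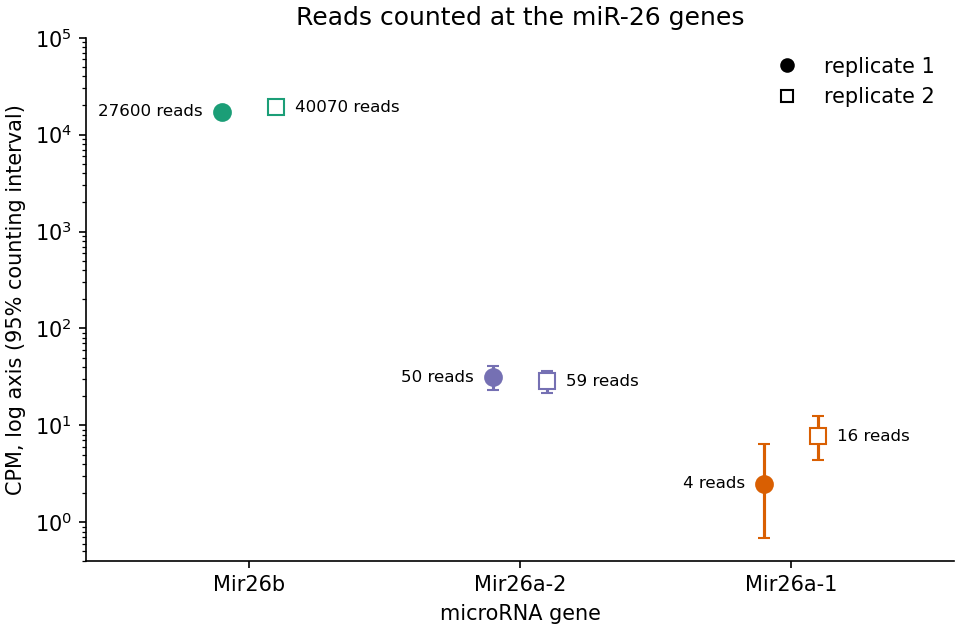
CPM of each miR-26 gene on a log axis, with filled circles for replicate 1, open squares for replicate 2 and bars for exact 95% counting intervals; read numbers stand beside the points. Mir26b is at 17317 and 19282 CPM, far above Mir26a-2 at 31.4 and 28.4 and Mir26a-1 at 2.51 and 7.70.

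Of the reads counted at the family, Mir26b held 99.8% in both libraries, with intervals of 99.75% to 99.85% and 99.77% to 99.85%. Mir26a-2 held 0.181% (0.134% to 0.238%) in replicate 1 and 0.147% (0.112% to 0.190%) in replicate 2. Mir26a-1 held 0.0145% (0.00394% to 0.0370%) and 0.0399% (0.0228% to 0.0647%). The order was the same in both libraries, and the intervals of the genes did not overlap within either library. The reads at Mir26b were 552-fold those at Mir26a-2 in replicate 1 (interval 419 to 744) and 679-fold in replicate 2 (526 to 892). Against Mir26a-1 the corresponding ratios were 6900 (2695 to 25326) and 2504 (1542 to 4382).

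These ratios compare counts placed at 1 locus and not amounts of miR-26a and miR-26b. Reads of miR-26a-5p up to 25 bases long match both of its loci, and such reads are left out of the gene counts. The 54 and 75 reads at the pair of miR-26a genes are thus reads that could be placed, from the 3p arms or from forms that reach beyond the common stretch. Which arm they came from is not recorded in gene counts, and how much miR-26a the muscle held cannot be read from them. Adapters also join to different sequences with different efficiency, which was not tested here.

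Within the miR-26a pair, Mir26a-2 had the larger count in both libraries. It held 92.6% of the pair's reads in replicate 1 (interval 82.1% to 97.9%) and 78.7% in replicate 2 (67.7% to 87.3%). The reads at Mir26a-2 were 12.5-fold (4.59 to 47.7) and 3.69-fold (2.09 to 6.87) those at Mir26a-1. Each share lay outside the interval of the other library, although the intervals themselves overlap, and the difference in this split was not tested.

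Between the libraries, Mir26b had a fold of 1.17 for replicate 2 over replicate 1 (exact 95% interval 1.15 to 1.18), with an adjusted p of 7.28e-86 in a two-sided exact binomial test on the reads of the libraries scaled by TMM. The test compares 2 libraries and not conditions, and it called 172 of 273 genes (63.0%), 33.3% as higher and 29.7% as lower in replicate 2. A call is therefore common here. The log2 ratio of Mir26b, 0.22, was smaller than the median absolute log2 ratio of all tested genes, 0.36. When edgeR's exact test was given the dispersion shared by all genes of these libraries (coefficient of variation 0.335), Mir26b did not pass (adjusted p = 1), while 4 genes (1.47%) did. Its level thus differed beyond counting error and by less than the usual spread between these libraries.

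Mir26a-2 had a fold of 0.948 (0.639 to 1.41) and did not pass the binomial test (adjusted p = 0.922). The interval leaves room for differences in either direction. Mir26a-1, too low to enter the test, had a fold of 3.21 on 4 and 16 reads, with an interval of 1.04 to 13.2. With no minimum it was tested and did not pass (exact binomial test, adjusted p = 0.118). Of the 3 genes, 1 was thus called higher, 1 did not pass and 1 was not tested.

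**Figure D3:**
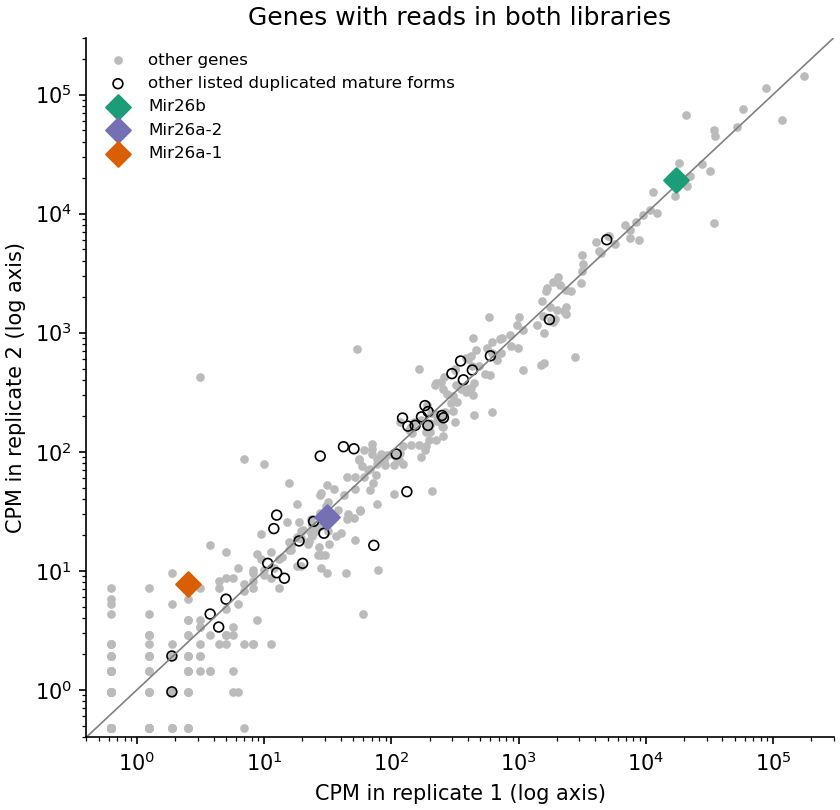
CPM of every gene with reads in both libraries, replicate 1 against replicate 2 on log axes, with the line of equal CPM; diamonds mark the miR-26 genes and open circles the other listed genes with a duplicated mature form. Mir26b lies near the line among the most abundant genes, Mir26a-2 near the line at about 30 CPM, and Mir26a-1 above it at the low end.

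In the order of mean CPM among detected genes, Mir26b stood between Mir10b and Mir411. Mir10b, from the Hox clusters, had 20929 and 17080 CPM, a range that holds both values of Mir26b, so the order of these genes differed between the libraries. Mir411, of the imprinted Dlk1-Dio3 cluster, had 16940 and 14103 CPM, both below the values of Mir26b. Mir26a-2 stood between Mir32 (40.2 and 20.7 CPM) and Mir345 (27.6 and 30.8 CPM), and all 3 ranges overlap. The ratios between the libraries nearest to that of Mir26b (log2 0.22) belonged to Mir495 (0.22), Mir676 (0.22) and Mir152 (0.22). Those nearest to that of Mir26a-2 (-0.08) belonged to Mir450b (-0.09), Mir376c (-0.10) and Mir615 (-0.05). With 2 libraries, likeness of this kind rests on a single ratio per gene.

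Genes of 2 kinds resemble the family in arrangement. The first are other microRNAs in introns of paralogous hosts, of which 6 of 12 listed genes were detected. Mir107, in a pantothenate kinase gene, had the highest mean CPM of them, with 642 and 1237 reads, although Mir499 had more in replicate 2 (86 and 1527 reads). The relatives of Mir107, Mir103-1 and Mir103-2, which share a mature arm, had 3 and 4 reads and 23 and 18 reads. Mir107, with no shared arm, thus had the largest count of them in both libraries. These relatives were named after their values were seen, and a link between counts and shared arms was not tested. Of the 6 detected genes, 4 were higher in replicate 2, 0 were lower and 2 did not pass, where 33.3% of all tested genes were higher and 29.7% lower. Their median log2 ratio was 0.71 against 0.02 over all tested genes. Mir107 was 1.55-fold higher (1.41 to 1.71), a larger ratio than that of Mir26b.

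The second kind are genes that share a mature form with another locus. Among 20 other listed pairs of this kind, 13 had a higher summed mean CPM than the miR-26a pair, whose 33.9 and 36.1 CPM ranked 14th of 21 by that mean. In replicate 1 the Mir133a pair, just below it by the mean, had 34.5 CPM. The median of the other pairs with reads was 285 CPM. Of 244 detected genes classed by their RefSeq arms, 210 shared no arm with another hairpin, 30 shared some but not all arms, and 4 shared all. Median log2(CPM + 1) was 7.58, 6.59 and 5.64 in these classes. All 17 of these classed genes with over 10000 CPM, Mir26b among them, were in the class with no shared arm, and the highest gene of the class sharing an arm was Mirlet7f-2 at 5481 CPM. Mir26a-2, in that class, had a log2(CPM + 1) of 4.95 and stood in the lower part of it, with 9 of 30 genes at or below its level, itself included. The class medians describe the counts and were not tested, and that of genes sharing all arms rests on 4 genes. Over the detected genes of the list of duplicated forms, the median was only 0.15 below that of all detected genes. By library, added after seeing the data, this difference was -0.47 in replicate 1 and 0.01 in replicate 2.

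**Figure D4:**
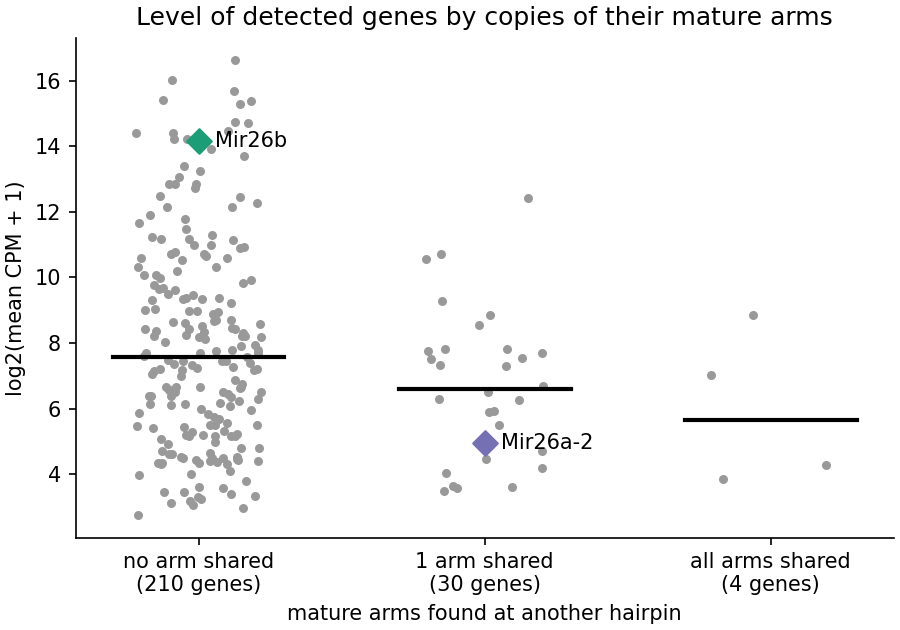
log2(mean CPM + 1) of 244 detected genes, grouped by whether their mature arms also occur at another hairpin; points are genes, bars are class medians (7.58, 6.59 and 5.64) and diamonds are miR-26 genes. Mir26b lies near the top of the class with no shared arm, and Mir26a-2 lies below the median of the class with an arm shared.

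Of other microRNAs known to target Ezh2, as miR-26a does, 5 genes were listed, and all 5 were detected. Mir101b was the highest of these 5 with 1578 and 1533 reads, followed by Mir214 with 675 and 1316 and Mir101a with 503 and 369. Each of these named genes was far below Mir26b in reads, and above Mir26a-2 (50 and 59) and Mir26a-1 (4 and 16). The miR-26a counts leave out reads that match both loci, so miR-26a cannot be ranked against these microRNAs. By the binomial test 1 of the 5 was higher in replicate 2, Mir214 with 1.57-fold (1.43 to 1.72), and 4 were lower, against 33.3% higher and 29.7% lower among all 273 tested genes. The median log2 ratio of the 5 was -0.76, against 0.02 over all tested genes. Mir101a had a fold of 0.589 (0.514 to 0.675) and Mir101b of 0.781 (0.727 to 0.838). Of 7 listed muscle microRNAs, 6 were detected. Of these, 3 were higher in replicate 2, led by Mir206 with 3.40-fold (3.36 to 3.45), 0 were lower and 3 did not pass. Over all tested genes, 33.3% were called higher and 29.7% lower. The Mir1a and Mir133a genes of this list share a mature form with another listed locus, so reads that match both loci are missing from their counts. At the coefficient of variation of 0.335 the edgeR test called only the 4 genes counted above, and it was not applied to the lists as such.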

How the data were processed

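The authors deposited 1 table of raw read counts by microRNA gene per sample, made on mm10 with annotation M21, per the file headers in the read-me text. Aligner and counting program: not given in the sources used here. Summary rows stayed out of library sizes. They held multiply matched reads (75.4% and 77.6% of all reads), unmapped reads (6.37% and 5.98%) and reads not on the strand of a microRNA gene (1.49% and 1.65%). Columns were read from their values as counts without regard to strand, on the gene's strand (used) and opposite. CPM is per 1000000 gene-assigned reads. A count of 0 allows 3 counts (1.88 and 1.44 CPM).

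Libraries were scaled with TMM (edgeR 4.0.16, R 4.3.3). Genes with at least 10 reads in both were tested by exact binomial tests (scipy 1.17.1, Python 3.11.15) with Benjamini-Hochberg adjustment at 0.05 over all of them. On simulated counts of these libraries with 200 genes changed, the test called 99.0% of the 97 tested 3-fold changes, 80.6% of the 98 tested 1.5-fold changes and 1.39% of 72 unchanged genes; the simulation held counting noise only. Hairpins were folded with RNAfold 2.7.2. Copies of arms were counted over RefSeq entries, which 244 of 273 detected genes could be classed by; 2 listed genes whose copy had no entry were left out. Genes named are the members, for each tested member the genes directly above and below in mean CPM and the 3 with the nearest ratio (mean of 100 reads or more), and up to 3 of the highest genes of each list. Mir103-1, Mir103-2, Mirlet7f-2, Mir199a-1 and the Mir133a pair were named after their values were seen. Members and lists were chosen with earlier results of these data known. PCR copies cannot be recognised, so intervals cover counting error only. Alternatives were other scalings, minimums, strands, totals, pseudocounts and tests, and leaving out each replicate.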

Additional observations from a re-analysis of the deposited data

Results flagged for a closer look

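Many reads lay outside the gene counts, far above the limit of 3 for an unseen feature. Replicate 1 had 7195252 reads with several matches and replicate 2 had 10919725, and reads of miR-26a-5p of up to 25 bases match 2 loci. Another 142257 and 232773 reads had a single match that was not on the strand of a microRNA gene. How many of either came from miR-26 transcripts was not tested.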

How the results depend on the processing

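Levels in CPM depended on the total used. Without regard to strand, Mir26b was at 26277 and Mir26a-2 at 43.0. With the most abundant gene left out of the total they were at 21748 and 35.6, and with multiply matched reads added to it at 3112 and 5.11, and Mir26a-1 at 0.843. These alternatives change the denominator and not the members' reads. Leaving out a replicate gave 17317 to 19282 for Mir26b, 28.4 to 31.4 for Mir26a-2 and 2.51 to 7.70 for Mir26a-1, and shares of the family's reads of 99.80% to 99.81%, 0.147% to 0.181% and 0.0145% to 0.0399%. The fold of Mir26b was 1.10 to 1.17 and stayed called under every other scaling, minimum and strand setting run, and that of Mir26a-2 was 0.897 to 0.948 and was never called. At the common dispersion the 1.17-fold of Mir26b did not pass (edgeR, adjusted p = 1), and 4 genes passed in place of 172, with 3 higher and 1 lower, or 19 at an unadjusted p under 0.05. Detected genes of the list of duplicated forms had a median log2(CPM + 1) 0.15 below that of all detected genes (difference -0.15). It was -0.79 for genes with any shared arm and, leaving out a replicate (added after seeing the data), -0.47 to 0.01. With no minimum, which brought in 561 genes in place of 273, it turned to 3.44. Which library's level is typical cannot be told from 2 libraries. No paired analysis was possible because the design has 1 group.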

Other observations

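Most other listed pairs of genes with a duplicated mature form had their larger count at the same locus in both libraries. This held for 18 of 19 such pairs with reads, and 1 more pair, Mir19b-1 and Mir19b-2, had 0 reads in both libraries. The exception was Mir29b-1 and Mir29b-2, with 17 and 20 reads in replicate 1 and 24 and 20 in replicate 2. Mir181b-2 held 99.3% and 99.5% of its pair's reads, and Mir16-1 held 87.5% and 86.5%. The share of the larger locus moved more for Mir181a-1, from 90.3% (interval 87.2% to 92.9%) to 67.7% (63.8% to 71.5%). These genes were named after their values were seen, and the counts cover only reads placed at 1 locus.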
